A study of Homo sapiens with 6 samples.

Results

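Cancer-testis antigen genes were followed across CD24-/CD44+/ESA+ cells sorted from 3 related human breast cancer lines. The members are the array rows whose gene symbols all belong to the MAGEA, MAGEB, MAGEC, GAGE, PAGE, XAGE, SSX, SPANX, CTAG, CT45A or CSAG families, or are PRAME, TEX14, SYCP1, DDX43, BRDT or CTCFL. By this rule 81 rows were found, and 9 of them held the same values as another member row on every array and were merged with it. That left 72 rows of the 21214 rows that carry a gene symbol, and 65 of the 72 lie on chromosome X. A row is 1 transcript cluster of the array, a set of probes read as one value. Of the 72 rows, 28 count as shared: 26 name several near-identical copies, and 2 (SPANXB1 and XAGE2) name 1 symbol but were merged with another row of that symbol and the same values. The signal of a shared row cannot be assigned to one copy, and the other 44 rows are unshared rows of a single gene.

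MDA-MB-231 is an established line from a human breast cancer without oestrogen receptor, and 231BoM-1833 and 231BrM-2a are sublines of it selected in mice for metastasis to bone and to brain. Each line has 2 arrays labelled as biological replicates, 6 in all, and the labels do not say whether replicates came from separate cultures, so that p-values reflect no more than the spread among these arrays. All 3 groups were cultured in the same medium, sorted with magnetic beads for the same 3 surface proteins (ESA is the product of EPCAM), and carry no treatment. The study asked how the sorted cells of each metastatic subline differ from those of the parental line. Each group is 1 line, so that a feature of the line and a feature of the organ it was selected in cannot be told apart. In bulk RNA, fewer cells with a transcript and less transcript per cell cannot be told apart either.

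Cancer-testis genes are transcribed in male germ cells, some also in placenta, and are silent in most other adult tissues, where methylation of CpG sites in their promoters keeps many of them off. Tumours often transcribe them again, and their peptides can then be presented to T cells. Most of the families sit on chromosome X as recent duplicates. MAGE proteins share a domain that binds RING-type ubiquitin ligases, SPANX proteins belong to the spermatid nucleus, SSX proteins are transcriptional repressors known from the fusion protein of synovial sarcoma, and GAGE, PAGE and XAGE proteins form a related group of small acidic proteins.

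The sequences upstream of 5 genes on which the results turn are shown because members of these families are known for silencing through CpG methylation, and because near-identical copies cannot be separated on the array. Each is the 250 bases before the RefSeq start of the gene in build GRCh38.p14, written 5′ to 3′ on the gene's strand, with CpG dinucleotides in capitals. SPANXB1 lies on the plus strand (chrX:141002344-141002593, 8 CpG), SPANXA1 on the minus strand (chrX:141584739-141584988, 6 CpG), MAGEC2 on the minus strand (chrX:142205291-142205540, 6 CpG), MAGEA3 on the plus strand (chrX:152698544-152698793, 15 CpG) and MAGEB2 on the plus strand (chrX:30215313-30215562, 15 CpG).
SPANXB1: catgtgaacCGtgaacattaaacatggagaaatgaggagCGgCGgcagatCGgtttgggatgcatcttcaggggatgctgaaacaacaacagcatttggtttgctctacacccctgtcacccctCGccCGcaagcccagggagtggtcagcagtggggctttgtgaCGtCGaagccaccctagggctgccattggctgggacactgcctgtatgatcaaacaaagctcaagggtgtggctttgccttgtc
SPANXA1: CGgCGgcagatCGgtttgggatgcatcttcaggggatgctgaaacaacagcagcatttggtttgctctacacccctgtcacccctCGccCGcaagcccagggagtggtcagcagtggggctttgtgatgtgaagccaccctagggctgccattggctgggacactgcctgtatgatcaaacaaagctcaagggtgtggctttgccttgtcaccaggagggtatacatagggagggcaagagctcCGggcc
MAGEC2: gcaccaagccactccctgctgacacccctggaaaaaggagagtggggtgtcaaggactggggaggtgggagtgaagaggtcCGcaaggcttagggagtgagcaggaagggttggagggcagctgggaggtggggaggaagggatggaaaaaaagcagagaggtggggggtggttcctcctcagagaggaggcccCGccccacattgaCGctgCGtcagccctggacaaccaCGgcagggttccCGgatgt
MAGEA3: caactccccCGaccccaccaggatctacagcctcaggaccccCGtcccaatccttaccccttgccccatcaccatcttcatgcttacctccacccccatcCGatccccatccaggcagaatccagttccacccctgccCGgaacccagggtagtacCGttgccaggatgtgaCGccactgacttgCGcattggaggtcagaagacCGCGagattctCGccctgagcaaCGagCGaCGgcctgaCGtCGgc
MAGEB2: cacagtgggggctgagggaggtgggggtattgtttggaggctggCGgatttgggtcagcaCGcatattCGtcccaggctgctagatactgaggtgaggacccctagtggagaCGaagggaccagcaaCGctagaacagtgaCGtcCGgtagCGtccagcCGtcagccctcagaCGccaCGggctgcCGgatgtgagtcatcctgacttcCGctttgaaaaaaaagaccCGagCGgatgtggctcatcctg
The windows of SPANXA1 and SPANXA2 were identical (100%), that of SPANXC differed from them at 3 of 250 bases (98.8% identity), and a local alignment of SPANXA1 with SPANXB1 matched 208 of 211 aligned positions (98.6%). The window of SPANXD, which is named by the same falling rows as SPANXA1, was unlike that of SPANXA1. The same local alignment of these 2 windows covered only 14 positions, of which 12 matched. The windows of MAGEA3 and MAGEA6 were also identical (100%).

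RefSeq windows were given for 70 of the 92 member symbols, 92 windows in all because some genes have several starts. The member windows held a median of 8 CpG dinucleotides (range 1 to 19), against a median of 11 and quartiles of 3 and 23 over the 35116 windows of all genes. The SPANX windows held 1 to 8, and the MAGEA windows 5 to 18. The letters CCGGAA, 1 form of the site recognised by ETS factors, were searched on both strands (TTCCGG on the other). Other forms of that site, such as CCGGAT, and other motifs were not searched. CCGGAA was found in 7 of the 92 member windows (7.61%) and in 14.5% of all windows. Copies count as separate windows in these values. Among them are the 13 GAGE windows, none with a match, and the identical windows of MAGEA3 and MAGEA6, each with 1. The MAGEA3 window shown above holds 1 such match, 113 bases before the start. These are descriptions of letters, and methylation was not measured on these arrays.

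**Figure D1:**
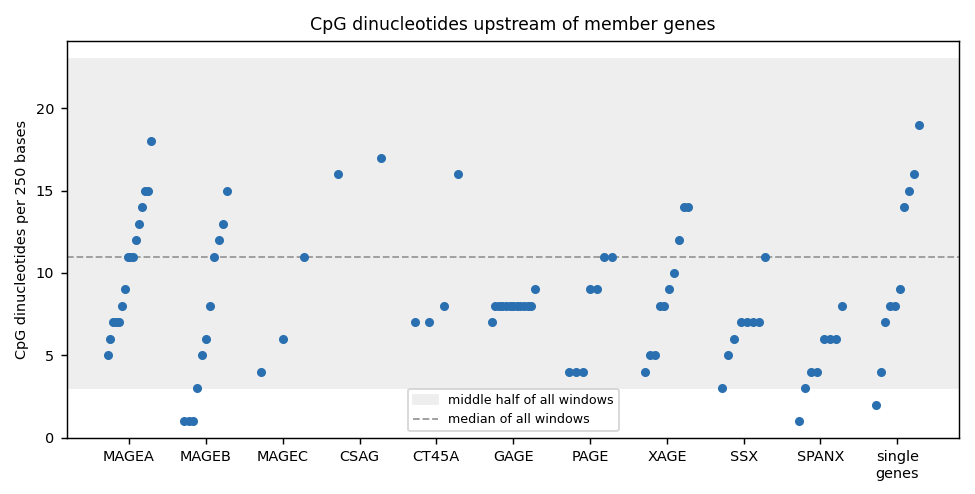
CpG dinucleotides in the 250 bases upstream of each RefSeq start of a member gene, 1 point per window, by family. The dashed line is the median of all 35116 windows (11) and the grey band runs between their quartiles (3 to 23); most SPANX, SSX and GAGE points lie between 1 and 9, and the highest point is 19.

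The 6 arrays were close in scale, with medians between 6.58 and 6.64 on the log2 scale. Correlations over all rows were 0.993 to 0.996 between the 2 arrays of a line (3 pairs) and 0.967 to 0.983 between arrays of different lines (12 pairs). Levels below are RMA values on the log2 scale, where a difference of 1 is 2-fold. A row was called where the adjusted p of limma, with Benjamini-Hochberg adjustment over all 21214 rows, was under 0.05. Differences are given with the standard error of the fit (n = 2 arrays per line).

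Against the parental line, 10 member rows rose and 17 fell in the bone subline 231BoM-1833, 37.5% of 72, while 15.8% of all rows were called (8.43% higher and 7.38% lower). In the brain subline 231BrM-2a, 2 rose and 16 fell, 25% of 72, beside 19.0% of all rows (10.5% higher and 8.59% lower). Between the sublines, 2 rows were higher and 15 lower in 231BrM-2a, 23.6% of 72, which is near the 23.5% of all rows (12.5% higher and 11.0% lower). The median difference of the 72 rows was -0.12 for bone minus parental, -0.19 for brain minus parental and -0.06 for brain minus bone, where all rows had medians of -0.05, -0.05 and 0.01. Both comparisons with MDA-MB-231 share its 2 arrays.

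Copies that share probes can add to these counts. With the 6 CT45A rows counted as 1, 5 rose and 17 fell in 231BoM-1833 (32.8% of 67 rows). In 231BrM-2a, where no CT45A row was called, 2 rose and 16 fell (26.9%). Between the sublines 2 were higher and 10 lower (17.9%). Among the 44 unshared rows 20.5%, 18.2% and 13.6% were called in the 3 comparisons in the same order, and among the 28 shared rows 64.3%, 35.7% and 39.3%. The 685 other X-linked rows had 21.3% called in 231BoM-1833 (18.2% higher and 3.07% lower), 32.6% in 231BrM-2a (19.4% higher and 13.1% lower) and 39.6% between the sublines (16.5% higher and 23.1% lower in 231BrM-2a).

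**Figure D2:**
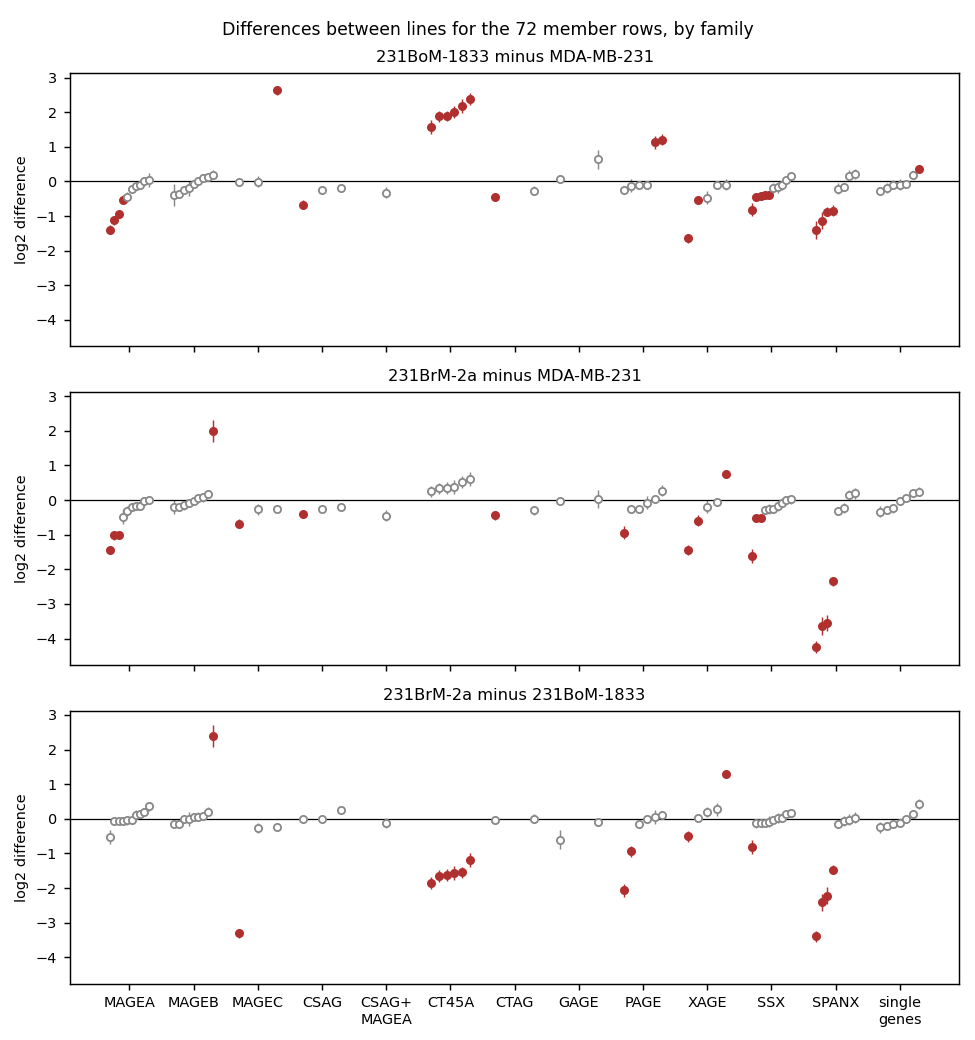
Log2 difference of each of the 72 member rows in the 3 comparisons, by family; filled red points are called (adjusted p under 0.05), open points are not, and bars are the standard error of the fit. MAGEC2 and CT45A stand highest in 231BoM-1833 (1.58 to 2.63), and the 4 called SPANX rows stand lowest in 231BrM-2a (-4.24 to -2.34).

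The SPANX genes fell further in the brain subline than any other member rows. SPANXB1 (row 8170241) read 11.33 and 11.15 in MDA-MB-231, 10.48 and 10.32 in 231BoM-1833, and 6.75 and 7.25 in 231BrM-2a. The 3 lines did not overlap, and the brain arrays stood far below the rest. The fall was 4.24 ± 0.16 on the log2 scale in 231BrM-2a, 18.9-fold (limma adjusted p = 1.44e-06). In 231BoM-1833 it was a fall of 0.84 ± 0.16, 1.79-fold (adjusted p = 0.0104). SPANXB1 was also 10.5-fold lower in 231BrM-2a than in 231BoM-1833 (adjusted p = 1.84e-06).

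The other X-chromosomal SPANX copies followed the same order. The first of the rows shared by SPANXA1, SPANXA2, SPANXC and SPANXD (8170249) read 9.17 and 8.94 in MDA-MB-231, 7.73 and 7.56 in 231BoM-1833, and 4.94 and 5.92 in 231BrM-2a. It was 12.3-fold lower in the brain subline (adjusted p = 4.25e-05) and 2.66-fold lower in the bone subline (adjusted p = 0.00826) than in the parental line. The second such row (8175543) was 11.7-fold (adjusted p = 3.37e-05) and 2.2-fold (adjusted p = 0.0153) lower. The row of SPANXC and SPANXD (8175558) read 8.50 and 8.24, then 7.60 and 7.40, then 6.13 and 5.93 in the same order of lines, and fell 5.08-fold in 231BrM-2a (adjusted p = 1.41e-05) and 1.83-fold in 231BoM-1833 (adjusted p = 0.0039). In all 4 rows the parental arrays were highest, the bone arrays between and the brain arrays lowest, without overlap. The more distant SPANXN1, SPANXN3, SPANXN4 and SPANXN5 did not pass the test in any comparison, with levels between 3.34 and 5.41. The upstream windows of SPANXB1 and SPANXA1, shown above, are near-identical over most of their length.
The bone call of SPANXB1 was lost without replicate 1 of MDA-MB-231 (adjusted p = 0.0737) or replicate 2 (0.0519). That of the first SPANXA row was lost without replicate 1 of MDA-MB-231 (0.0634), and that of the second without replicate 1 of MDA-MB-231 (0.094) or 2 (0.0677) or replicate 2 of 231BoM-1833 (0.0517); the brain calls were kept without any 1 array.

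MAGEC2, which lies on the same stretch of chromosome X and encodes a partner of the ubiquitin ligase TRIM28, went up in one subline and down in the other. MAGEC2 (row 8175562) read 5.57 and 5.24 in MDA-MB-231, 8.12 and 7.96 in 231BoM-1833, and 4.66 and 4.80 in 231BrM-2a. The bone arrays stood well above both other lines, and the brain arrays below the parental ones. The rise in 231BoM-1833 was 2.63 ± 0.14, 6.19-fold (limma adjusted p = 1.19e-05), and the fall in 231BrM-2a was 1.6-fold (adjusted p = 0.00836). Between the sublines MAGEC2 differed 9.89-fold (adjusted p = 8.67e-07). Its neighbours in the family did not pass the test: MAGEC1 lay between 5.80 and 6.37 and MAGEC3 between 5.14 and 5.51 on all arrays. The fall in 231BrM-2a lost its call without replicate 1 of MDA-MB-231 (adjusted p = 0.0644) or replicate 1 of 231BrM-2a (0.0663).

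The CT45A genes, a tandem family on chromosome X, rose in the bone subline. Each of 6 rows names the same 9 copies (CT45A1 to CT45A3 and CT45A5 to CT45A10), so that the rows are repeated readings of the group and not of separate genes. The last of these rows (8175353) read 4.40 and 4.04 in MDA-MB-231, 6.76 and 6.45 in 231BoM-1833, and 4.54 and 4.96 in 231BrM-2a. Its rise in 231BoM-1833 was 2.38 ± 0.18, 5.22-fold (limma adjusted p = 9.26e-05). The 6 rows rose by 1.58 to 2.38 in 231BoM-1833, with adjusted p from 9.26e-05 to 0.00155. In 231BrM-2a they read 0.26 to 0.60 above the parental line and did not pass the test (adjusted p from 0.0725 to 0.306, 2 of 6 at an unadjusted p under 0.05). The differences of 231BrM-2a from 231BoM-1833 ran from -1.86 to -1.19 (adjusted p from 0.000117 to 0.00256). In every row both bone arrays lay above all 4 other arrays.

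The called MAGEA rows all fell against the parental line, 4 of 10 in 231BoM-1833 and 3 of 10 in 231BrM-2a. Over all rows 7.38% and 8.59% fell. Both rows shared by MAGEA3 and MAGEA6 are among the called rows in each subline, and they read the same copies. Products of MAGEA3 and MAGEA6 bind TRIM28 and direct it to AMP-activated kinase. The second of their shared rows (8175747) read 8.04 and 8.22 in MDA-MB-231, 6.86 and 6.60 in 231BoM-1833, and 6.64 and 6.75 in 231BrM-2a. Both sublines lay below the parental arrays and overlapped each other. This row fell by 1.40 ± 0.13 in 231BoM-1833 (2.64-fold, limma adjusted p = 0.00026) and by 1.44 ± 0.13 in 231BrM-2a (2.71-fold, adjusted p = 0.000119). The sublines differed by -0.04 ± 0.13 (adjusted p = 0.873). The first shared row (8170553) fell 1.93-fold and 2.01-fold (adjusted p = 0.000688 and 0.00027).

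MAGEA1 (row 8175775), the founding member of the family, read 6.73 and 6.49 in MDA-MB-231, 5.36 and 5.60 in 231BoM-1833, and 5.55 and 5.65 in 231BrM-2a. It fell 2.18-fold in the bone subline (adjusted p = 0.000951) and 2.01-fold in the brain subline (adjusted p = 0.000955), and the arrays of the sublines overlapped. MAGEA4 read 5.71 and 6.03, then 5.27 and 5.40, then 5.74 and 5.67, and fell only in 231BoM-1833 by the test, 1.45-fold (adjusted p = 0.0248). Its difference between the sublines was 0.37 ± 0.13 (adjusted p = 0.0713), and its bone call was lost without replicate 2 of MDA-MB-231 (0.172) or replicate 1 of 231BoM-1833 (0.0835). The other 6 MAGEA rows were called in no comparison. MAGEA8 read between 7.48 and 8.18 and differed by -0.45 in 231BoM-1833 (adjusted p = 0.0555), and MAGEA11, whose product binds the androgen receptor, read between 4.14 and 5.11.
CSAG1, which lies among the MAGEA genes, fell by 0.67 ± 0.12 in 231BoM-1833 (adjusted p = 0.00689) and by 0.40 ± 0.12 in 231BrM-2a (adjusted p = 0.0427). The bone call was lost without replicate 2 of MDA-MB-231 (0.0652), and the brain call without any 1 array of those 2 lines (0.107 to 0.21). The 2 other CSAG rows and the row shared by CSAG4 and MAGEA12 were not called.

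MAGEB2 (row 8166611) was the only one of 9 MAGEB rows called, and the only member with a rise of more than 2-fold in the brain subline by the test. It read 4.59 and 4.86 in MDA-MB-231, 4.18 and 4.48 in 231BoM-1833, and 6.09 and 7.35 in 231BrM-2a. The brain arrays lay above all others but differed by more than 1 from each other. MAGEB2 rose by 2.0 ± 0.33 over the parental line (4.0-fold, limma adjusted p = 0.00312) and was 5.25-fold higher than in 231BoM-1833 (adjusted p = 0.000844). Without replicate 1 of 231BrM-2a the rise was 6.19-fold, and without replicate 2 it was 2.58-fold. Against 231BoM-1833 these values were 8.13-fold and 3.39-fold, and the calls were kept. The other 8 MAGEB rows had means over the 6 arrays between 4.31 and 5.91.

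**Figure D3:**
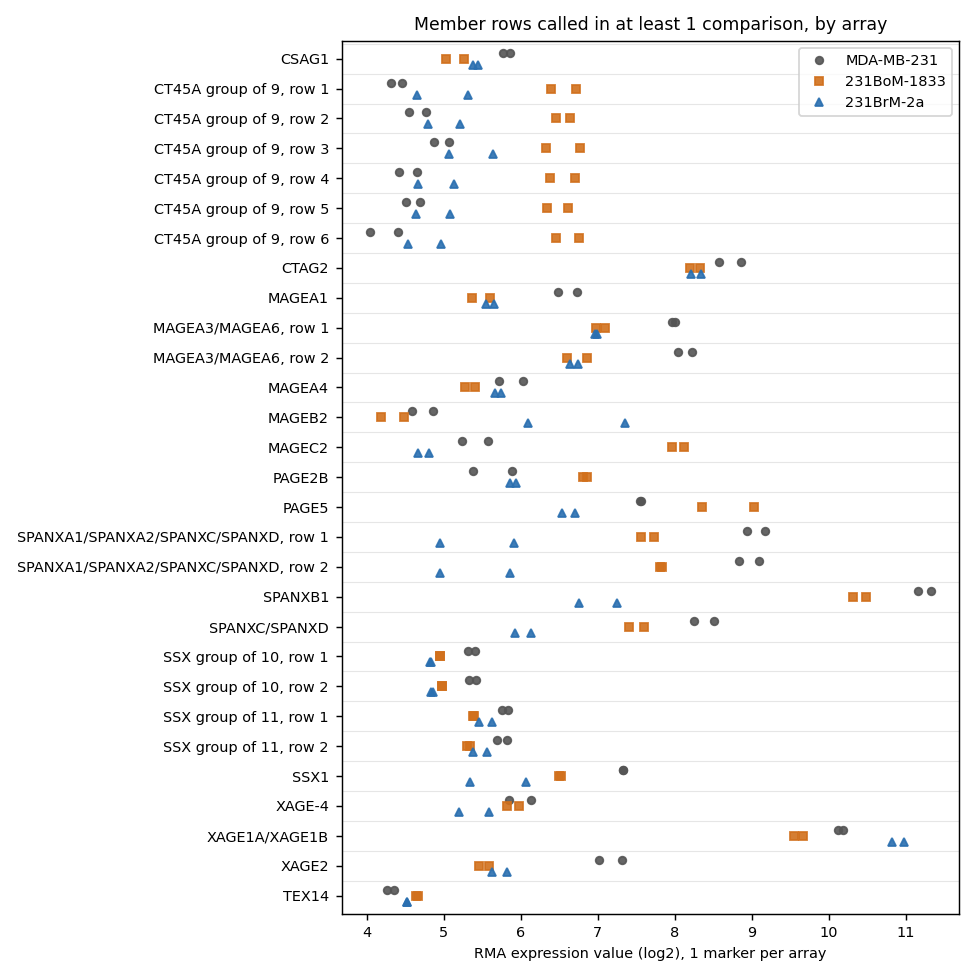
RMA log2 value on each of the 6 arrays for the 29 member rows called in at least 1 comparison, 1 marker per array, coloured by line. SPANXB1 spans 11.33 (MDA-MB-231) to 6.75 (231BrM-2a), MAGEC2 and the CT45A rows stand apart in 231BoM-1833, and MAGEB2 stands apart in 231BrM-2a; values of different rows are not comparable as levels.

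Among the GAGE-related families, PAGE5 and PAGE2B rose in the bone subline, while XAGE2 fell in both sublines. PAGE5 (row 8167880) read 7.55 and 7.56 in MDA-MB-231, 9.03 and 8.35 in 231BoM-1833, and 6.71 and 6.53 in 231BrM-2a. The lines did not overlap, with the bone arrays highest and the brain arrays lowest. PAGE5 rose 2.19-fold in 231BoM-1833 (limma adjusted p = 0.00576), fell 1.91-fold in 231BrM-2a (adjusted p = 0.00902) and differed 4.19-fold between the sublines (adjusted p = 8.77e-05). The bone call was lost without replicate 2 of MDA-MB-231 (0.0504), and the brain call without replicate 1 of MDA-MB-231 (0.0531) or 2 (0.066) or replicate 2 of 231BrM-2a (0.0707).
PAGE2B (row 8167862) read 5.88 and 5.38, then 6.86 and 6.81, then 5.93 and 5.86, and rose 2.3-fold in 231BoM-1833 (adjusted p = 0.00164). The brain arrays did not pass the test against the parental ones (0.27 ± 0.15, adjusted p = 0.265) and were 1.91-fold below the bone arrays (adjusted p = 0.00239). The other 4 PAGE rows, with means between 3.69 and 4.55, were not called.

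XAGE2 (row 8167693) read 7.31 and 7.01 in MDA-MB-231, 5.46 and 5.58 in 231BoM-1833, and 5.62 and 5.82 in 231BrM-2a. Both sublines lay below the parental arrays, 3.11-fold in 231BoM-1833 (adjusted p = 0.000139) and 2.72-fold in 231BrM-2a (adjusted p = 0.000142), and differed from each other by 0.20 ± 0.13 (adjusted p = 0.346). The row shared by XAGE1A and XAGE1B (8167701) went the opposite way in the sublines to PAGE5. It read 10.18 and 10.12, then 9.54 and 9.66, then 10.82 and 10.97, with no overlap of lines. It fell 1.46-fold in 231BoM-1833 (adjusted p = 0.0115), rose 1.67-fold in 231BrM-2a (adjusted p = 0.00193) and was 2.45-fold higher in the brain than in the bone subline (adjusted p = 5.53e-05). The bone call was lost without replicate 1 of MDA-MB-231 (0.0726) or 2 (0.0673). XAGE-4 fell 1.51-fold in 231BrM-2a (adjusted p = 0.0262), a call lost without replicate 2 of MDA-MB-231 (0.189) or replicate 1 of 231BrM-2a (0.174), and was 1.42-fold lower than in 231BoM-1833 (adjusted p = 0.0429), a call lost without any 1 array other than replicate 2 of 231BrM-2a. XAGE3 and XAGE5 were not called.
The GAGE row that names 12 copies read 8.34 and 8.51 in MDA-MB-231, 8.51 and 8.49 in 231BoM-1833, and 8.49 and 8.33 in 231BrM-2a, so that all lines overlapped. The other GAGE row, of 10 copies, read between 2.78 and 4.16. Neither was called by limma in any comparison, with 1 of 2 at an unadjusted p under 0.05 for 231BoM-1833.

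SSX1 fell step by step from the parental to the bone to the brain arrays. SSX1 (row 8167254) read 7.32 and 7.33 in MDA-MB-231, 6.52 and 6.50 in 231BoM-1833, and 5.34 and 6.06 in 231BrM-2a, without overlap. It fell 1.76-fold in 231BoM-1833 (limma adjusted p = 0.0243), 3.08-fold in 231BrM-2a (adjusted p = 0.000726), and was 1.75-fold lower in the brain than in the bone subline (adjusted p = 0.0163). Of the 4 rows that name 10 or 11 SSX copies, all fell in 231BoM-1833, by 0.39 to 0.44, and those of the group of 10 fell in 231BrM-2a, by 0.52 and 0.53. The other 5 SSX rows were not called. The bone call of SSX1 was lost without any 1 array of the parental or bone line (0.0632 to 0.128), and its brain minus bone call without either 231BoM-1833 array or without replicate 1 of 231BrM-2a (0.0525 to 0.0625). The bone calls of the 4 shared rows were each lost without any 1 array of those 2 lines, and those of the group of 10 also without either 231BrM-2a array (0.0527 to 0.15 in all). The brain calls of the group of 10 were lost without replicate 1 of MDA-MB-231 or replicate 1 of 231BrM-2a (0.051 to 0.056).

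CTAG2, a close relative of the vaccine antigen encoded by CTAG1B, read 8.57 and 8.86 in MDA-MB-231, 8.20 and 8.33 in 231BoM-1833, and 8.34 and 8.20 in 231BrM-2a. It fell by 0.45 ± 0.13 in the bone subline (limma adjusted p = 0.0434) and by 0.44 ± 0.13 in the brain subline (adjusted p = 0.0405). Leaving out any 1 array ended the bone call (up to 0.261), and leaving out replicate 2 of MDA-MB-231 or either 231BrM-2a array ended the brain call (0.0944 to 0.263). The row shared by CTAG1A, CTAG1B and CTAG2 read between 7.40 and 7.84 and was not called.

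Of the 6 single genes, TEX14, a component of the bridges between germ cells, was called. It read 4.26 and 4.35 in MDA-MB-231, 4.64 and 4.67 in 231BoM-1833, and 4.52 in each 231BrM-2a array. The rise in 231BoM-1833 was 0.35 ± 0.10 (limma adjusted p = 0.0462), and it was lost without any 1 array (up to 0.187). PRAME, a substrate receptor of a cullin ubiquitin ligase, read 5.62 and 5.56, then 5.60 and 5.38, then 5.24 and 5.47 in the same order of lines, with the groups overlapping. SYCP1, part of the synaptonemal complex, read between 3.25 and 3.55, the helicase gene DDX43 between 4.16 and 4.35, and BRDT, the testis bromodomain gene, between 4.03 and 4.63. CTCFL, the germ cell paralogue of CTCF, has 2 rows, and the first read between 7.93 and 8.57 with a difference of 0.43 ± 0.14 between the sublines (adjusted p = 0.0544). The second read between 4.66 and 5.04.

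In all, 43 of the 72 rows were called in no comparison. The share of all rows called in no comparison was not computed, so whether 43 is many or few cannot be read. Differences of the 43 ran from -0.47 to 0.63 in 231BoM-1833 and from -0.47 to 0.25 in 231BrM-2a against the parental line. The files hold no detection call, and 55 of the 72 rows had a mean under 6.26, the level that bounds the dimmest 33.3% of all rows, MAGEC2, MAGEB2, MAGEA1, XAGE2, PAGE2B and the CT45A rows among them. With these dim rows left out, 17 member rows remained among 14142 rows. Of the 17, 1 rose and 10 fell in 231BoM-1833, and 1 rose and 9 fell in 231BrM-2a. Between the sublines 2 of the 17 were higher and 6 lower. Of the 14142 rows, 3461, 4073 and 4826 were called in these comparisons in the same order. A row was kept by its mean over all 6 arrays, so that rows high in 1 line only were left out.
The 17 falls in 231BoM-1833 were 8 without replicate 1 of MDA-MB-231, 6 without replicate 2 of MDA-MB-231, 11 without replicate 1 of 231BoM-1833 and 10 without replicate 2 of 231BoM-1833. The 16 falls in 231BrM-2a were 10 without replicate 1 of 231BrM-2a.

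Genes next to the members on chromosome X were read for comparison, in RefSeq order. On the stretch that holds the SPANX and MAGEC genes, 7 neighbours outside the families were measured, and none was called by limma in either subline against the parental line (3 of 7 in 231BoM-1833 and 0 of 7 in 231BrM-2a at an unadjusted p under 0.05). Their differences ran from -0.76 to 0.17 in 231BoM-1833 and from -0.23 to 0.51 in 231BrM-2a. LDOC1, which lies between SPANXB1 and SPANXC, differed by 0.08 and 0.06. Whether LDOC1 lies above background was not determined. Of the 685 other X-linked rows, 21.3% were called in 231BoM-1833 and 32.6% in 231BrM-2a against the parental line. Between the sublines 1 of the 7 neighbours, SLITRK4, was higher in 231BrM-2a, by 1.27 (adjusted p = 0.00677), beside 16.5% of the other X-linked rows. On the same stretch SPANXB1 and MAGEC2 differed by -0.84 and 2.63 in 231BoM-1833, so that members on it moved in opposite directions.
Beside the CT45A genes, 2 of 6 neighbours rose in 231BoM-1833: SAGE1, itself a cancer-testis gene, by 0.97 (adjusted p = 0.00812) and MMGT1 by 0.54 (adjusted p = 0.00937). In 231BrM-2a MMGT1 fell by 0.60 (adjusted p = 0.00371), and 5 of the 6 were lower than in 231BoM-1833. Around MAGEA3 and MAGEA6, GABRA3 fell by 1.44 in 231BoM-1833 (adjusted p = 0.00033) and fell by 1.96 in 231BrM-2a (adjusted p = 3.57e-05), and NSDHL and ZNF185 fell by 0.69 and 0.57 in 231BrM-2a (adjusted p = 0.00382 and 0.00735). GABRE, GABRQ and CETN2 did not pass the test against the parental line and differed by 0.42, -0.31 and -0.37 in 231BrM-2a. Of all 6 neighbours of that stretch, 6 in 231BrM-2a and 1 in 231BoM-1833 were at an unadjusted p under 0.05, with GABRE higher in 231BrM-2a. Between the sublines 4 of 6 were lower in 231BrM-2a. Beside this count and that of the CT45A neighbours, 23.1% of the other X-linked rows were lower. Against the parental line 18.2% of those rows rose and 3.07% fell in 231BoM-1833, and 19.4% rose and 13.1% fell in 231BrM-2a.

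**Figure D4:**
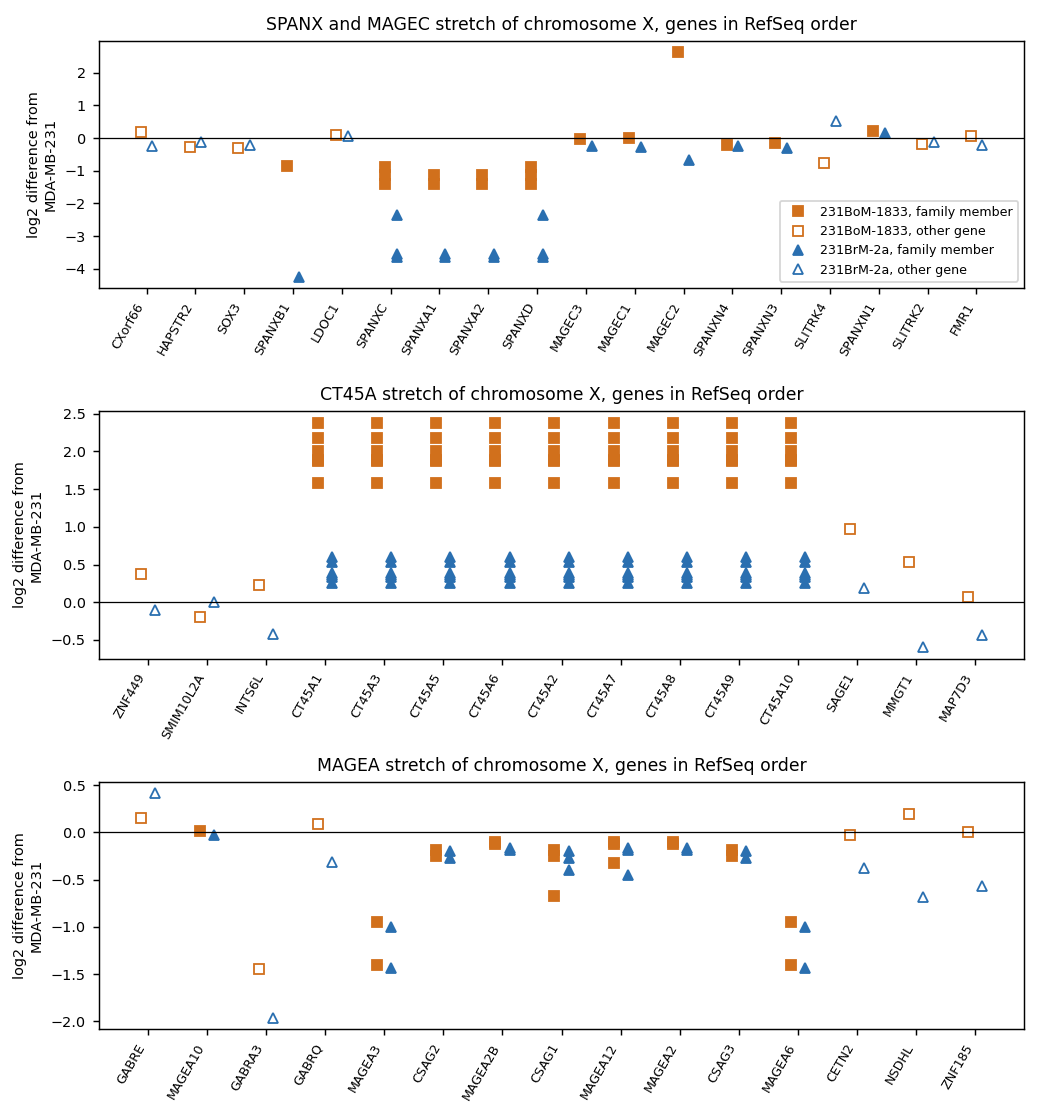
Log2 difference of each subline from MDA-MB-231 (231BoM-1833 squares, 231BrM-2a triangles) along 3 stretches of chromosome X, genes in RefSeq order and not to scale; filled markers are members, open markers other genes, and a shared row is drawn at each copy it names. LDOC1 stands near 0 between SPANX genes that reach -4.24, and GABRA3 reads -1.44 and -1.96 between MAGEA10 and MAGEA3.

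MAGE relatives outside the cancer-testis group, which are transcribed in many tissues, include genes that rose. Of 9 measured of 10 listed, 3 rose in 231BoM-1833 and 3 in 231BrM-2a, 33.3% in each. Over all rows 8.43% and 10.5% rose, and of the X-linked rows outside the member families 18.2% and 19.4%. MAGED1 had means of 8.17, 8.78 and 10.37 in the parental, bone and brain lines and rose by 2.19 ± 0.20 in 231BrM-2a (limma adjusted p = 0.000129). MAGED2 rose by 1.11 ± 0.14 in 231BoM-1833 (adjusted p = 0.00138) and by 1.08 ± 0.14 in 231BrM-2a (adjusted p = 0.000939). MAGEH1 rose by 1.13 and 0.50 (adjusted p = 0.000691 and 0.0222). The median difference of the 9 was 0.27 and 0.12 in the sublines.

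Among other testis-restricted and meiotic genes, 4 of 35 measured rose in 231BoM-1833, and 2 rose and 1 fell in 231BrM-2a, with medians of -0.0047 and -0.11. These are 11.4% and 8.6% of the list, below the shares called over all rows (15.8% and 19.0%). CT83, a cancer-testis gene of chromosome X outside the listed families, had means of 6.95, 7.70 and 6.27, and rose by 0.75 ± 0.11 in 231BoM-1833 (adjusted p = 0.00295) and fell by 0.67 ± 0.11 in 231BrM-2a (adjusted p = 0.00311). ZNF165 rose by 1.21 ± 0.16 in 231BoM-1833 (adjusted p = 0.00184), and SYCP2, of the synaptonemal complex, rose by 0.68 ± 0.11 in 231BrM-2a (adjusted p = 0.00306).

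Of the genes for DNA methylation and silencing, 39 of 40 listed were measured. In 231BoM-1833, 5 rose and 2 fell, and in 231BrM-2a, 3 rose and 5 fell, with medians of -0.07 and -0.04. These are 17.9% and 20.5% of the list, near the shares called over all rows (15.8% and 19.0%). The methyltransferase DNMT3B had means of 7.26, 8.04 and 7.08 and rose by 0.78 ± 0.12 in 231BoM-1833 (adjusted p = 0.00366), and DNMT1, which maintains methylation, had means of 10.54, 10.37 and 10.50 and did not pass the test. TET2, which oxidises methylated cytosine, rose by 0.95 ± 0.10 in 231BoM-1833 (adjusted p = 0.000746). ZBTB33, which binds methylated DNA, fell by 0.75 ± 0.13 in 231BrM-2a (adjusted p = 0.0036), and the histone methyltransferase gene EHMT2 fell by 0.55 and 0.52 in the sublines (adjusted p = 0.00958 and 0.00801).
Of the protein partners of MAGE and PRAME, 15 of 18 listed were measured, with 2 higher and 1 lower in 231BoM-1833 and 3 lower in 231BrM-2a. These are 20.0% of the measured partners in each subline, beside 15.8% and 19.0% of all rows. TRIM28, which is in both lists, had means of 11.16, 10.36 and 11.16 and fell by 0.80 ± 0.11 in 231BoM-1833 (adjusted p = 0.00191), the subline in which MAGEC2 rose. PRKAA2, a subunit of AMP-activated kinase, rose by 1.21 ± 0.11 in 231BoM-1833 (adjusted p = 0.000234), and the retinoic acid receptor gene RARB rose by 1.16 ± 0.11 there (adjusted p = 0.000355).

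Markers of other cells were read on the same arrays. CD44 had means of 11.86, 12 and 11.45 and EPCAM of 8.03, 7.80 and 8.19 in the parental, bone and brain lines, and CD24 of 6.12, 6.12 and 5.91. Neither subline had CD44, EPCAM or CD24 called by limma against the parental line. Between the sublines CD44 was called, lower in 231BrM-2a (-0.54 ± 0.13, limma adjusted p = 0.014). Of 8 genes listed for the sort and the identity of the lines, 2 were higher in 231BrM-2a than in 231BoM-1833 (ERBB2 and KRT18) and 2 lower (CD44 and VIM), while 23.5% of all rows were called. Of 13 germ cell markers, 1 (PRM1) fell in 231BoM-1833, and none was called by limma in 231BrM-2a against the parental line (1 at an unadjusted p under 0.05). The summed log2 value of the 13 ranged over 68.7 to 70.1 for the parental, 68.2 to 68.3 for the bone and 67.2 to 68.0 for the brain arrays. Of 9 measured leukocyte markers none was called by limma against the parental line (1 in each subline at an unadjusted p under 0.05). Their summed log2 value was likewise lowest in the brain arrays, 50.5 to 50.7, beside 51.3 to 52.4 for the parental and 51.5 to 51.6 for the bone arrays. PTPRC, which defines leukocytes, had means of 3.73, 3.68 and 3.71, and CD68 of 11.19, 11.54 and 10.91. Between the sublines 1 marker of each of these 2 lists was called, lower in 231BrM-2a (7.7% of the germ cell and 11.1% of the leukocyte markers). TNP1 differed by -0.53 ± 0.12 (limma adjusted p = 0.0103) and CD68 by -0.63 ± 0.11 (adjusted p = 0.00389).
Of 10 endothelial and fibroblast markers, 4 rose (PDGFRB, DCN, COL1A1 and LUM) and 2 fell (KDR and PECAM1) in 231BrM-2a. Over all rows 10.5% rose and 8.59% fell there. In 231BoM-1833 KDR rose and DCN fell, beside 8.43% and 7.38% of all rows. Between the sublines the same 4 markers were higher in 231BrM-2a and 1 (KDR) was lower, beside 12.5% and 11.0% of all rows. The summed log2 value of the 10 markers ranged over 59.5 to 59.6 for the parental, 58.4 to 59.2 for the bone and 60.9 to 62.0 for the brain arrays. The part of these markers in the changes of the cancer-testis rows was not tested. No array value is at 0, since the scale has no true zero, so absence of a marker cannot be read from these files.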

How the data were processed

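The deposited values are log2 expression values on Affymetrix Human Gene 1.0 ST arrays, which the authors, per the submitters' processing notes, computed by RMA using Affymetrix Expression Console. Genome build and probe annotation are not given in the sources used here; of 33297 rows, 19460 carry 1 platform symbol, 1754 several and 12083 none, and 91 of 92 member symbols matched RefSeq. The value table was used as deposited. limma 3.58.1 (R 4.3.3) fitted 1 mean per line over all 6 arrays, and the 3 contrasts were two-sided. Rows that name several copies, or that hold identical values, count once. Named rows are up to 12 per comparison and direction with the largest called change, the 10 with the highest mean, the single genes, and up to 4 per background list; other called rows are named too. Members and lists were chosen with earlier results of these data known. The fit was tested on simulated data. Alternatives were another quantile normalization, filters, models, row counting and leaving out each array.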

Additional observations from a re-analysis of the deposited data

Results flagged for a closer look

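The sublines differed from each other, by the direct limma contrast of 231BrM-2a minus 231BoM-1833, in 17 member rows of 72 (23.6%), a share near that of all rows (23.5%). Values are log2 differences, and both sublines' 2 arrays lay apart in each. Higher in 231BrM-2a were MAGEB2 (2.39) and the row of XAGE1A and XAGE1B (1.29). The largest negative differences were those of SPANXB1 (-3.40) and MAGEC2 (-3.31). The rows of SPANXA1, SPANXA2, SPANXC and SPANXD had -2.21 and -2.41, and that of SPANXC and SPANXD had -1.47. PAGE5 had -2.07, PAGE2B -0.94, SSX1 -0.81 and XAGE-4 -0.50. The 6 CT45A rows, readings of the same copies, had -1.57, -1.55, -1.19, -1.64, -1.62 and -1.86. Adjusted p ranged from 8.67e-07 for MAGEC2 to 0.0429 for XAGE-4.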

How the results depend on the processing

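No setting reversed a called difference of a member row: of 2643 values recomputed, 2509 kept their side of the threshold, 104 lost the call and 30 gained one. Most of the 2643 belong to differences that were not called at first and so had no call to lose. Called rows that the filter removed are not among the 104. Counts below are higher and lower in 231BoM-1833, higher and lower in 231BrM-2a, each against MDA-MB-231, and higher and lower between the sublines; they were 10, 17, 2, 16, 2 and 15. With the dimmest 33.3% of rows left out they were 1, 10, 1, 9, 2 and 6, because only 17 member rows remained. With all 33297 rows tested, 9 rows fell in 231BoM-1833. The 46 rows with 1 symbol, SPANXB1 and XAGE2 included, gave 4, 7, 1, 9, 1 and 6, and every member row counted separately gave 6 rises in 231BrM-2a and 6 between the sublines. With the CT45A rows counted as 1, a choice made after seeing the data, 5 rows rose in 231BoM-1833. Leaving out 1 array at a time gave 8 to 10, 6 to 14, 2 to 3, 10 to 18, 2 to 3 and 13 to 15. Over all rows, 3354 calls in 231BoM-1833 fell to 1325 without MDA-MB-231 replicate 1, 932 without MDA-MB-231 replicate 2 and 2220 with all rows tested; 4040 in 231BrM-2a fell to 2390, 1764, 2180 and 2016 without either MDA-MB-231 or either 231BrM-2a replicate; and 4976 between the sublines fell to 3079 and 3001 without either 231BrM-2a replicate. The cause was not tested.

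Equal replicate numbers did not mark pairs: the deviations of same-numbered arrays correlated at 0.036, -0.162 and -0.165. With the replicate block the 6 counts were 9, 12, 2, 14, 2 and 15. With the numbers crossed in 231BrM-2a, a choice made after seeing the data, they were 11, 19, 5, 18, 3 and 16.

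With 2 arrays per line and no detection call in the files, which dim rows lie above background was not determined.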
